A study of Mus musculus with 18 samples.

Results

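The hypoxia-inducible factor (HIF) pathway was followed in mouse liver through 10 genes, taken by name from both deposited expression tables of 54532 genes: the HIF alpha subunits Hif1a and Epas1, the oxygen sensors Egln1 and Egln3, and the HIF target genes Vegfa, Ndrg1, Bnip3, P4ha1, Pdk1 and Ankrd37. All 10 were present in both tables. RNA-seq was run on livers of male wild-type (WT) C57BL/6J mice that had been fasted overnight, 1 library per mouse. In the first experiment, 5 mice ate a control diet (Ctrl) and 5 a vitamin B2 (riboflavin) deficient diet (B2D) for 1 month, starting at about 1 month of age. In the second, 4 mice on each diet were kept on it for 9 wk and given fenofibrate, a drug that activates the nuclear receptor PPARα, over weeks 7 to 9 and again 2 hr before harvest (Ctrl+FF and B2D+FF). No group was given the vehicle alone for 9 wk, so fenofibrate, time on diet and expression table change together and their effects cannot be told apart.

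HIF is a transcription factor built from an oxygen-labile alpha subunit, HIF-1α (Hif1a) or HIF-2α (Epas1), and a stable partner, ARNT. In the presence of oxygen, prolyl hydroxylases (the products of Egln1, Egln2 and Egln3) mark the alpha subunit, the von Hippel-Lindau protein (Vhl) binds the mark, and the subunit is degraded, so the pathway is set largely at the level of protein and its target mRNAs serve as its usual readout. In liver, oxygen falls along the lobule from the portal to the central end, and HIF targets cover vessel growth (Vegfa), mitophagy (Bnip3), collagen hydroxylation (P4ha1), the brake on pyruvate entry into mitochondria (Pdk1), the stress-response gene Ndrg1, the ankyrin-repeat gene Ankrd37, and the sensor Egln3 itself. The study used these libraries to find the liver gene programs that change when riboflavin, the precursor of the flavin cofactors FAD and FMN, is lacking. Its gene set enrichment in the first experiment named hypoxia-associated sets among those altered by B2D. The tests below are of single genes, and no set test was run.

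HIF binds a short core, ACGTG or GCGTG. Sequences upstream of the start sites were taken from RefSeq (build GRCm38.p6), which held 10 start sites of 8 of the 10 genes, and the 250 bases before each start were searched for both cores on both strands. Of the 10 stretches, 8 held either core (ACGTG in 7 and GCGTG in 6), against 38.6% of all 32851 upstream stretches of the same length (16.6% with ACGTG and 28.2% with GCGTG). The 2 stretches with no match were that of Vegfa nearest the start of its gene model and that of a Pdk1 start inside the gene, so the matches of Vegfa come from a start inside the gene. Those of Hif1a and Ankrd37 also come from starts inside their gene models. The starts of Egln1 and Bnip3 lay a little inside, so the ends of their stretches overlap the gene models. The ACGTG core of Egln1, 68 to 64 bases before the RefSeq start, lay in that overlap, while its GCGTG core (126 to 122) did not. The members' stretches were richer in G and C (median 65.2%, against 52.4% in all), and of the 9178 stretches with at least 60% G and C, 63.8% held either core. Where the core sits inside CACGTG, the letters are also an E-box, and the match was then counted on both strands: this was so in Hif1a and Bnip3. A match describes the letters only. The stretches of Egln3, which fell in B2D, of Bnip3, the most abundant of the targets, and of P4ha1, whose B2D libraries lay on both sides of the Ctrl range, are printed below from 5′ to 3′ on the gene's strand, ending where the gene model of the tables begins for Bnip3 and P4ha1 and at the RefSeq start for Egln3, with the cores (either strand) in capitals. Their positions are chr12:54203875-54204124 (minus strand), chr7:138909520-138909756 (minus strand) and chr10:59323046-59323295 (plus strand).
Egln3: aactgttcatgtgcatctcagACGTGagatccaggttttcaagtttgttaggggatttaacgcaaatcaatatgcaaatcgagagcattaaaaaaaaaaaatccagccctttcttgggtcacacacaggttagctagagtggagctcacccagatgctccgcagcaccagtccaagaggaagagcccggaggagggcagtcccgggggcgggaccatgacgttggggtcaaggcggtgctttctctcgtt
Bnip3: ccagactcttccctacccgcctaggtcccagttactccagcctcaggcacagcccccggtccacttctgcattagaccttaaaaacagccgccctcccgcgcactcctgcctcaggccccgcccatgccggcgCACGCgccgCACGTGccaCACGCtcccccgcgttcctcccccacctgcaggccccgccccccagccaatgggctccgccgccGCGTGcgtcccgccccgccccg
P4ha1: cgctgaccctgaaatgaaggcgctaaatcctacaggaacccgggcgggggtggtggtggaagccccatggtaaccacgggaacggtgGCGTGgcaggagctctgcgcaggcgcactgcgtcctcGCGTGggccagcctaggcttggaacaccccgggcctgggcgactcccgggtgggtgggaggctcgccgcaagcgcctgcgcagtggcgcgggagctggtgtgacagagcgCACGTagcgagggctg
The single Egln3 core lay 229 to 225 bases before the RefSeq start, whereas the cores of Bnip3 lay 117 to 31 bases before it, and those of P4ha1 from 163 to 12.

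The libraries held 15320729 to 21898502 reads on genes. Values are FPKM, reads per kilobase of gene scaled for depth within each table by the authors, so levels can be set side by side between genes, and tests were made only within a table or on differences of diet effects. Each library correlated with the others of its group at a mean r of 0.966 to 0.988 across genes. Hepatocyte markers (Alb, Apoa1, Ttr, Serpinc1, Tat, Cps1, Ass1, Cyp3a11) summed to between 20813 and 49017 FPKM in every library, and none was at 0. Because the tissue is bulk liver, fewer cells of a type and less RNA per cell cannot be told apart.

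At baseline the 10 genes spanned a wide range of levels. In Ctrl livers Bnip3 was far above the rest at 176 ± 28.0 FPKM (SD, n = 5), Vegfa (30.5 ± 5.22) and Epas1 (28.3 ± 5.48) followed with overlapping libraries, then came Pdk1 (9.48 ± 1.57), Egln1 (8.70 ± 1.67), Egln3 (8.03 ± 0.630) and Hif1a (7.25 ± 1.24), whose libraries also overlapped. P4ha1 (2.04 ± 0.304), Ndrg1 (0.850 ± 0.221) and Ankrd37 (0.144 ± 0.0831) were the lowest, with no overlap between neighbours. In the other 3 groups too, Bnip3 was the highest and Ankrd37 the lowest by mean.

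**Figure D1:**
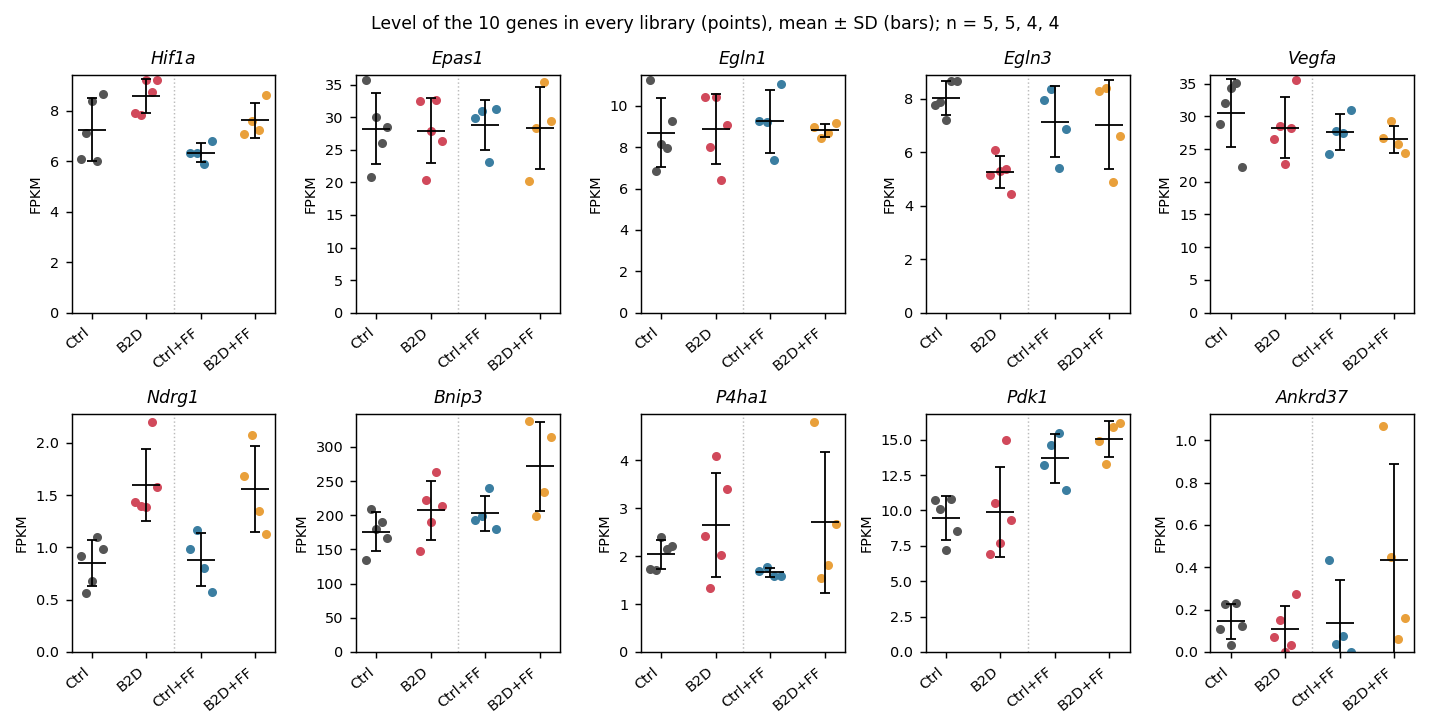
FPKM (vertical axis, from 0, its own scale per gene) of the 10 genes in each library of Ctrl and B2D (n = 5 each) and of Ctrl+FF and B2D+FF (n = 4 each). Points are libraries, bars are mean ± SD (the SD of Ankrd37 is cut at 0), and the dotted line separates the tables. The B2D points of Egln3 (4.43 to 6.10) all lie below the Ctrl points (7.20 to 8.68), and those of Ndrg1 (1.38 to 2.19) all lie above (0.567 to 1.10).

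Of the 10 genes, 9 reached the mean FPKM of 0.5 needed for testing in each fit. Without fenofibrate, limma (Benjamini-Hochberg adjustment over 11574 genes, threshold 0.05) called 2 of these 9: the sensor Egln3 fell and Ndrg1 rose. Over all tested genes 2.70% were called, 0.769% higher and 1.94% lower. The other 7 genes did not pass, and their 95% intervals covered 0. With fenofibrate none of the 9 passed in limma, against 4.45% of 11878 genes tested, and limma voom on the recovered reads also called none. Of the 9, 2, Hif1a and Ndrg1, had an unadjusted p under 0.05 in limma, as did 21.2% of all tested genes. In the test of the difference between the 2 diet effects limma and limma voom called none of the 9 either, against 0.228% of 11862 genes. There 1 of the 9, Egln3, had an unadjusted p under 0.05 in limma, as did 11.9% of all tested genes.

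Egln3 encodes the prolyl hydroxylase PHD3, whose own mRNA is induced by HIF. Its Ctrl libraries held 7.77, 7.87, 7.20, 8.65 and 8.68 FPKM. The B2D libraries held 5.16, 6.10, 5.31, 5.36 and 4.43 FPKM. The groups did not overlap, which was true of 2.89% of all tested genes in the lower direction. The mean fell by 34.4% in B2D (5.27 ± 0.595 FPKM, n = 5, against 8.03 ± 0.630), a difference of −0.53 on the log2(FPKM + 1) scale (SE 0.0937, 95% interval −0.733 to −0.325, limma adjusted p = 0.0145). Between 224 and 483 reads stood behind each value. The difference passed in all 6 other settings tried (adjusted p 0.00974 to 0.0436) and in 9 of 10 fits with a library left out. Without Ctrl 4 the adjusted p was 0.0533, with a difference of −0.50.

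In the fenofibrate experiment Egln3 showed no such separation. Ctrl+FF libraries held 7.94, 8.38, 5.40 and 6.85 FPKM, and B2D+FF libraries 8.27, 8.38, 4.86 and 6.60. Both groups therefore covered nearly the same range. The diet difference was −0.03 (95% interval −0.419 to 0.358, limma adjusted p = 0.943). The test of the difference between the 2 diet effects gave 0.50 (95% interval 0.0983 to 0.899, unadjusted p = 0.0175, limma adjusted p = 0.300 over 11862 genes), so the Egln3 effects were not called different. Of all genes, 11.9% had an unadjusted p under 0.05 in that test. The other 7 tested genes besides Ndrg1 differed between experiments by −0.08 (Egln1) to 0.19 (P4ha1), with limma adjusted p from 0.824 to 0.994.

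Egln1 encodes PHD2, the main sensor of HIF-1α. It held 11.3, 6.87, 8.15, 7.96 and 9.25 FPKM in Ctrl and 10.4, 8.04, 10.4, 6.42 and 9.06 in B2D. The ranges overlapped almost fully, with a difference of 0.02 (95% interval −0.298 to 0.347, limma adjusted p = 0.946). In Ctrl+FF it held 9.29, 9.21, 7.40 and 11.1 FPKM and in B2D+FF 8.97, 8.43, 8.67 and 9.19, a difference of −0.05 (95% interval −0.295 to 0.193). The ratio of Egln1 to Egln3 followed from these values: its median was 1.07 in Ctrl (0.873 to 1.45) and 1.97 in B2D (1.20 to 2.05), against 1.27 in Ctrl+FF livers and 1.24 in B2D+FF.

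Ndrg1, a gene induced by hypoxia and by other stresses, was low but separated by diet. Ctrl libraries held 0.920, 0.567, 0.676, 1.10 and 0.986 FPKM (65 to 144 reads). B2D libraries held 1.43, 1.39, 1.38, 2.19 and 1.58 FPKM (157 to 281 reads). No B2D library overlapped the Ctrl range, as for 2.08% of all tested genes in the higher direction. The mean rose 1.88-fold, from 0.850 ± 0.221 to 1.60 ± 0.344 FPKM (n = 5 each). On the log2(FPKM + 1) scale, which understates the change at such low levels, the difference was 0.49 (SE 0.116, 95% interval 0.235 to 0.742, limma adjusted p = 0.0474). On the reads themselves (limma voom) it was 0.93. The call sat at the threshold: it was lost in each of the 10 fits with a library left out (adjusted p 0.0585 to 0.125), without the filter on low values (0.138) and under quantile normalization (0.0609).

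With fenofibrate the Ndrg1 values were close to those of the first experiment. Ctrl+FF libraries held 0.979, 1.17, 0.802 and 0.573 FPKM and B2D+FF libraries 1.68, 2.07, 1.35 and 1.13. Only the lowest B2D+FF library reached into the Ctrl+FF range. The ratio of means was 1.77 and the difference 0.44 (95% interval 0.130 to 0.750, unadjusted p = 0.0105, limma adjusted p = 0.105), which did not pass. The 2 diet effects on Ndrg1 differed by −0.05 (95% interval −0.429 to 0.333, limma adjusted p = 0.942). Of its 6596 exon bases, Ndrg1 shares 419 with Gm17035 and 137 with Gm2895 on the opposite strand, both at 0 FPKM in each table.

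**Figure D2:**
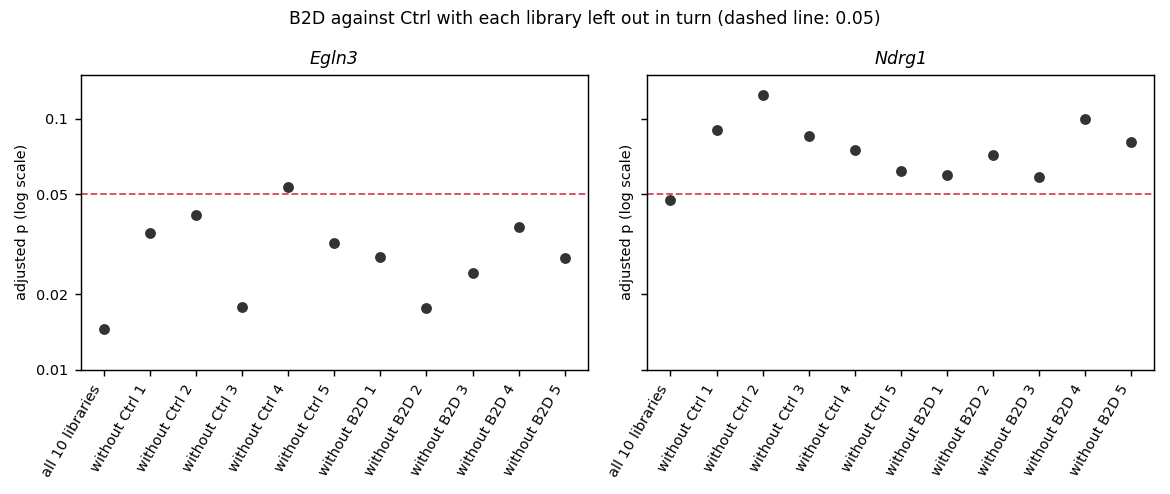
Adjusted p of limma (vertical axis, log scale) for Egln3 and Ndrg1 in B2D against Ctrl, with all 10 libraries and with each library left out in turn. The dashed line is 0.05. Egln3 stays below it except without Ctrl 4 (0.0533), whereas Ndrg1 is above it in every leave-one-out fit (0.0585 to 0.125).

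Hif1a, the gene of HIF-1α, held 6.08, 7.10, 8.37, 6.02 and 8.67 FPKM in Ctrl and 7.90, 7.84, 9.20, 8.76 and 9.23 in B2D. The groups overlapped. The difference was 0.23 (95% interval −0.0183 to 0.472, limma adjusted p = 0.308). With fenofibrate it held 6.30, 6.34, 5.89 and 6.80 FPKM in Ctrl+FF livers and 7.06, 7.58, 7.23 and 8.62 in B2D+FF. Every B2D+FF library was above every Ctrl+FF library, as for 7.82% of all tested genes in that direction. The mean was 7.62 ± 0.701 against 6.33 ± 0.368 FPKM (n = 4 each), a difference of 0.23 (95% interval 0.0472 to 0.416, unadjusted p = 0.0192, limma adjusted p = 0.144). This did not pass after adjustment, and 21.2% of all genes had an unadjusted p under 0.05. Hif1a shares 330 of its 5896 exon bases with the antisense gene Gm15283, which stood at a mean of 0.134 and 0.243 FPKM in the 2 tables. It also shares 148 with Gm49321 on the same strand, which stood at 0 FPKM in both.

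Epas1, the gene of HIF-2α, was the more abundant alpha subunit, with a median ratio to Hif1a of 3.60 in Ctrl, 3.03 in B2D, 4.67 in Ctrl+FF livers and 3.58 in B2D+FF. Its levels were 35.8, 20.9, 30.1, 26.0 and 28.5 FPKM in Ctrl and 32.6, 20.4, 27.9, 32.6 and 26.4 in B2D. With fenofibrate they were 29.9, 31.0, 23.2 and 31.2 in Ctrl+FF livers and 20.2, 28.4, 35.5 and 29.5 in B2D+FF. The diets overlapped in both experiments. The differences were −0.01 (95% interval −0.358 to 0.335) and −0.04 (95% interval −0.415 to 0.338), with limma adjusted p = 0.977 and 0.924, and the first turned to 0.02 after upper-quartile rescaling and 0.07 after quantile normalization. Epas1 is a gene of endothelial cells as well as hepatocytes. The 12 endothelial markers summed to 44.2 to 68.4 FPKM in Ctrl, 56.1 to 67.0 in B2D, 43.4 to 51.2 in Ctrl+FF livers and 38.0 to 55.2 in B2D+FF. For the 11 tested, the median diet difference was 0.25 without fenofibrate (9 above 0) and −0.16 with it (3 above 0). The part of this in the Epas1 values was not tested.

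**Figure D3:**
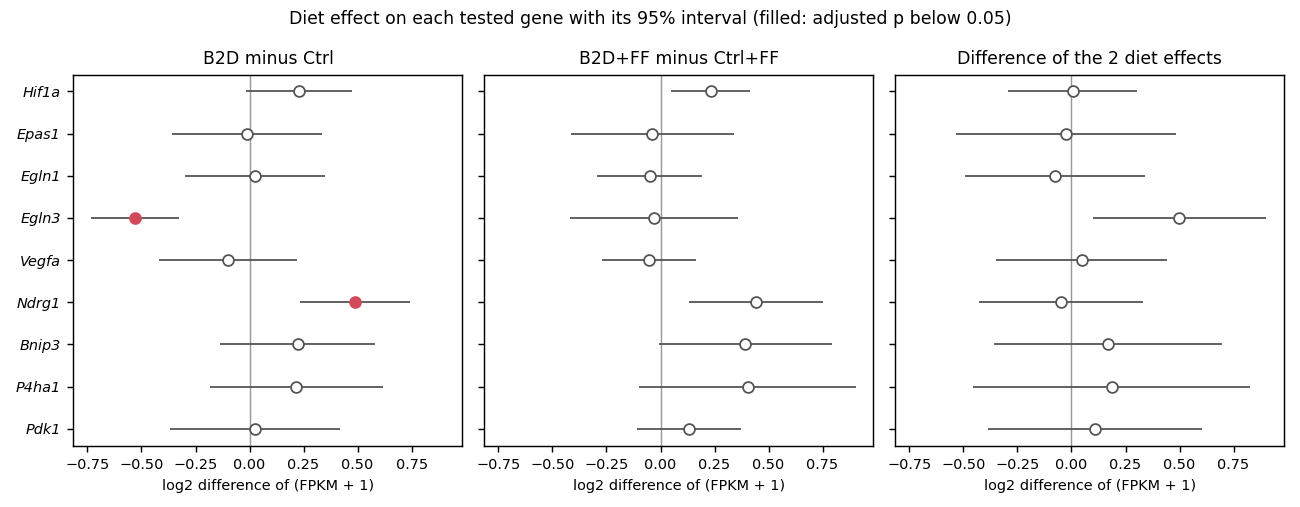
Diet difference on the log2(FPKM + 1) scale (horizontal axis) of the 9 tested genes, without fenofibrate, with fenofibrate and as the difference of the 2 effects. Points are estimates, lines 95% intervals, and filled points have an adjusted p below 0.05. Filled points appear for Egln3 (−0.53) and Ndrg1 (0.49) without fenofibrate.

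Among the targets, Bnip3, a receptor for mitophagy, was the most abundant. It held 134, 209, 180, 191 and 166 FPKM in Ctrl and 148, 222, 189, 264 and 213 in B2D, a difference of 0.22 (95% interval −0.135 to 0.581, limma adjusted p = 0.493). With fenofibrate it held 193, 199, 240 and 180 FPKM in Ctrl+FF livers and 338, 199, 234 and 314 in B2D+FF. In the latter, 2 libraries were above all controls and 2 within their range. The difference was 0.39 (95% interval −0.00554 to 0.791, limma adjusted p = 0.242). It shares 504 exon bases with an antisense gene, Gm45507, that had no reads in either table.

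P4ha1, the catalytic subunit of a collagen prolyl 4-hydroxylase, was more even in controls than under B2D. Its Ctrl libraries held 1.72, 1.72, 2.39, 2.16 and 2.21 FPKM. Its B2D libraries held 2.42, 1.34, 4.09, 2.02 and 3.40 FPKM. In B2D the lowest and the highest library lay on either side of the whole Ctrl range. The difference was 0.22 (95% interval −0.183 to 0.617, limma adjusted p = 0.555). Ctrl+FF libraries held 1.69, 1.77, 1.58 and 1.59 FPKM and B2D+FF libraries 4.79, 1.54, 1.82 and 2.67, so that 1 of the 4 carried most of the distance between the means. That difference was 0.40 (95% interval −0.0973 to 0.903, limma adjusted p = 0.335). Without this library, B2D+FF 1, the difference was 0.16. The same library was also the highest for Bnip3 and for Ankrd37.

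Pdk1, the kinase that inhibits pyruvate dehydrogenase, held 10.7, 10.1, 7.17, 10.8 and 8.58 FPKM in Ctrl and 6.91, 10.5, 7.72, 15.0 and 9.36 in B2D. The B2D values lay on both sides of the controls, with a difference of 0.03 (95% interval −0.369 to 0.420, limma adjusted p = 0.954). In Ctrl+FF it held 13.2, 14.6, 15.4 and 11.4 FPKM and in B2D+FF 14.9, 13.3, 15.9 and 16.2, a difference of 0.13 (95% interval −0.107 to 0.375, limma adjusted p = 0.510). All 8 fenofibrate libraries were above 11 FPKM, a level that 1 of the 10 libraries of the first table exceeded, and this was not tested since the tables were normalized separately.

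Vegfa, the main growth factor for vessels, held 28.9, 32.0, 34.3, 35.1 and 22.2 FPKM in Ctrl and 26.5, 28.5, 22.7, 28.2 and 35.5 in B2D. The groups covered the same range, and the difference was −0.10 (95% interval −0.419 to 0.217, limma adjusted p = 0.750). With fenofibrate it held 24.2, 27.8, 27.5 and 30.9 FPKM in Ctrl+FF livers and 26.6, 29.2, 25.8 and 24.4 in B2D+FF, a difference of −0.05 (95% interval −0.272 to 0.165, limma adjusted p = 0.797).

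Ankrd37 was near the limit of detection and was not tested. Its reads numbered 3, 6, 1, 7 and 4 in Ctrl, 2, 4, 0, 1 and 8 in B2D, 11, 1, 2 and 0 in Ctrl+FF livers and 28, 14, 2 and 5 in B2D+FF. The highest value, 1.07 FPKM, was in B2D+FF 1. Of its 1539 exon bases, 57 are shared with Ufsp2 on the opposite strand, which stood at 7.47 and 6.80 FPKM in the 2 tables, and 349 with Lrp2bp at 0.0660 and 0.0457 FPKM. The sources used here do not state that reads were counted by strand, so reads from the shared bases cannot be assigned to one gene or the other.

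The median difference of the 9 tested genes was 0.03 without fenofibrate, with 6 above 0, against a median of −0.0013 over all genes. With fenofibrate it was 0.13, with 5 above 0, against 0.01 over all genes. Variation from mouse to mouse was compared within groups. After subtraction of the group means, the 36 pairs had a median Pearson r of −0.09 over the 10 libraries without fenofibrate and −0.08 over the 8 with it, where all gene pairs had medians of 0.0007 and 0.0009. These r values share libraries and are given as a description. The extremes in the first table were Egln1 and Bnip3 (−0.93, but −0.24 in the second) and Ndrg1 and Pdk1 (0.64, but −0.07 in the second). In the second the highest was Bnip3 and P4ha1 (0.80, but −0.20 in the first) and the lowest Epas1 and P4ha1 (−0.69, but 0.27 in the first). Each of these pairs was picked as an extreme of the 36. Other pairs had like values in both tables, such as Bnip3 and Pdk1 (0.61 and 0.61) and Epas1 and Bnip3 (−0.535 and −0.672). Those were picked after the values were seen.

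The genes whose library-to-library pattern was most like that of a member over the 10 libraries without fenofibrate mostly did not keep the likeness over the 8 libraries with it. For Bnip3 the nearest gene was Cmbl (r = 0.97, and 0.89 in the other table), followed by Sdhd (0.96 and 0.64) and Tbce (0.96 and −0.16). For Egln3 it was Ripk2 (0.95 and 0.60), and for Ndrg1 it was Scamp1 (0.94 and 0.55). For Epas1 it was Myh9 (0.98 and 0.53). Those of Hif1a (Chd1l, 0.96 and 0.0071), Egln1 (Slc26a11, 0.98 and −0.03), Vegfa (2610507I01Rik, 0.99 and 0.0093) and P4ha1 (Slc10a5, 0.96 and −0.70) were near or below 0 in the second table. For Pdk1 the nearest was Enpp5 (0.94 and 0.31). Each is the highest r over all other tested genes, so a high r in the first table is fixed by the choice.

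Beyond the 10 genes, 98 other gene symbols of the pathway were listed by role, of which 1, Ero1a, is in the tables only under an older symbol that was listed too. Of these, 68 were tested without fenofibrate: Cdkn1a, an inhibitor of the cell cycle that several stresses induce, rose and Aldoc, a glycolytic aldolase, fell (2.94% called, against 2.70% of all genes). Cdkn1a stood at 1.15 ± 0.827 FPKM in Ctrl and 6.13 ± 3.62 in B2D (n = 5 each), a difference of 1.68 (limma adjusted p = 0.0221). Aldoc stood at 2.42 ± 0.417 and 1.45 ± 0.282 FPKM, a difference of −0.48 (limma adjusted p = 0.0453). With a library left out the count ranged from 0, without Ctrl 4, to 3. The Cdkn1a call held in 7 of 10 such fits and 4 of 5 other settings (adjusted p up to 0.0911), and the Aldoc call in 2 of 10 and 2 of 5 (adjusted p up to 0.134).

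With fenofibrate, 69 were tested and 8 rose while none fell (11.6% called, against 4.45% of all genes, or 2.24% in the higher direction). Maff, a small stress-responsive transcription factor, stood at 1.47 ± 0.147 FPKM in Ctrl+FF livers and 4.53 ± 0.579 in B2D+FF (n = 4 each), a difference of 1.16 (limma adjusted p = 9.18e-04). Hilpda, a HIF target that restrains the lipid-droplet lipase, stood at 3.18 ± 1.33 and 10.7 ± 2.59 FPKM, a difference of 1.51 (limma adjusted p = 0.0117). The other 6 encode enzymes of glycolysis, whose genes several transcription factors besides HIF regulate. Among them were Aldoa (45.3 ± 1.43 and 93.2 ± 22.2 FPKM, difference 1.00, limma adjusted p = 0.0112), Eno1 (0.63, 0.00983), Pgam1 (0.50, 0.0218) and Gpi1 (0.53, 0.0286). Of the 18 tested genes of glucose uptake and glycolysis, 6 were higher and none lower, with a median difference of 0.31, while without fenofibrate none was higher and 1, Aldoc, was lower. In a test of the difference between the diet effects, 1 of the listed genes passed, Maff (1.63, limma adjusted p = 0.00687), so the other 7 were not called different between experiments.

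The calls of Maff, Hilpda, Aldoa and Eno1 held in all 8 fits with a library left out, whereas those of the other 4 held in 2 or 3 of them. The count ranged from 4 (without Ctrl+FF 1, 2 or 3 or without B2D+FF 4) to 14 (without B2D+FF 3) and was 5 without B2D+FF 1. Many glycolytic genes have processed pseudogenes of nearly the same sequence, and the tables differ there. Processed pseudogenes took 0.0519 to 0.0656% of reads without fenofibrate and 0.382 to 0.530% with it. Gapdh, a gene with many such copies, stood at 233 to 412 FPKM in the first table and at 1.28 to 31.4 in the second. Within the second, Gapdh also differed by diet, at 1.28 to 1.93 FPKM in Ctrl+FF livers and 2.64 to 31.4 in B2D+FF. That difference was 1.87 (limma adjusted p = 0.104). The pseudogene share was 0.382 to 0.471% in Ctrl+FF livers and 0.419 to 0.530% in B2D+FF. The values of the glycolytic genes are therefore uncertain, and the part of this in their differences was not tested. No gene with the symbol of a member plus a copy suffix (such as -ps or -rs) was found. Copies of the members under other names were not searched for.

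**Figure D4:**
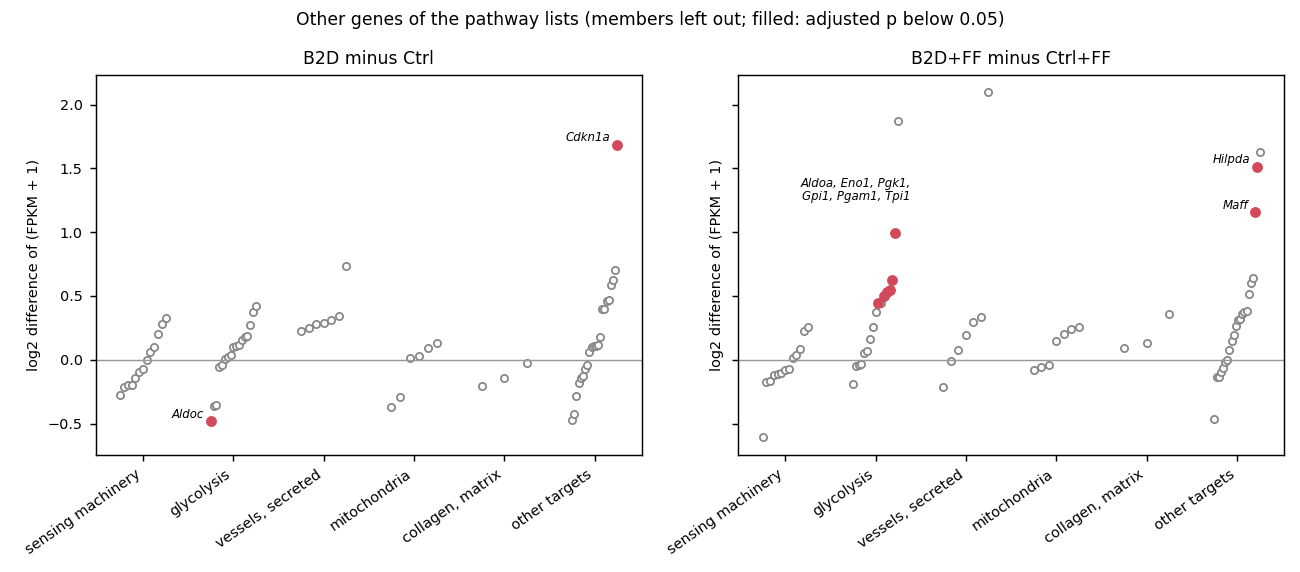
Diet difference on the log2(FPKM + 1) scale (vertical axis) of the other tested genes of the pathway, grouped by role along the horizontal axis, without (left) and with fenofibrate (right). Each point is a gene, filled and named where the adjusted p is below 0.05. Filled points are Cdkn1a (1.68) and Aldoc (−0.48) on the left, and 8 genes on the right, from Tpi1 (0.44) to Hilpda (1.51).

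The rest of the sensing machinery showed no call. Of 17 tested genes of the HIF subunits, sensors and their partners, Egln3 was the one called without fenofibrate and none was called with it. With fenofibrate 4 of the 17 had an unadjusted p under 0.05 in limma, as did 21.2% of all tested genes. Arnt, the shared beta subunit, stood at 4.96 ± 0.649 FPKM in Ctrl and 4.96 ± 0.606 in B2D, a difference of 0.0010 (95% interval −0.224 to 0.226, limma adjusted p = 0.996). Egln2, the third hydroxylase, stood at 20.3 ± 1.11 and 19.4 ± 2.87 FPKM, above Egln1 and Egln3, with a difference of −0.07 (limma adjusted p = 0.764). With fenofibrate it stood at 21.8 ± 1.45 and 25.7 ± 1.32, a difference of 0.22 that did not pass (unadjusted p = 0.0214, limma adjusted p = 0.152). Vhl differed by −0.20 and −0.17 (limma adjusted p = 0.342 and 0.314) and Hif1an, the asparagine hydroxylase that limits HIF activity, by 0.06 and −0.08 (0.791 and 0.638). Hif3a, the remaining alpha subunit, had 0 to 20 reads per library and was not tested.

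Markers of other cells and of the lobule's zones moved in places with the diet. Over all tested genes, 2.70% were called without fenofibrate (1.94% lower) and 4.45% with it (2.24% higher). With fenofibrate, 21.2% of all tested genes had an unadjusted p under 0.05 in limma. Without fenofibrate, 2 of 9 Kupffer cell markers were lower in B2D, Clec4f (−0.47) and C1qa (−0.50), as were 1 of 5 tested erythroid markers, Alas2 (−1.36), and 2 of 10 periportal markers, Cyp2f2 (−1.26) and Sult5a1 (−0.59). Kupffer markers summed to 107 to 135 FPKM in Ctrl and 86.0 to 119 in B2D, and none was at 0. Of the 12 markers of the pericentral, low-oxygen zone none was called, and their sum ran from 5235 to 8881 FPKM in Ctrl and from 4187 to 6904 in B2D. The periportal sum ran from 2084 to 2915 FPKM and from 1866 to 2610. The median difference was −0.18 over the Kupffer markers, −0.25 over the periportal and −0.20 over the pericentral markers. Over the 11 tested endothelial markers it was 0.25, with 9 above 0. Over the 3 tested neutrophil markers it was 0.36, with 3 above 0. No endothelial or neutrophil marker was called without fenofibrate. With fenofibrate, 1 of 6 erythroid markers, Alas2 (−1.37), was lower again (list median −0.53), and 1 of 12 pericentral markers, Rgn (−0.79), was lower (−0.16). Of 8 hepatocyte markers 3 were higher, Tat (1.35), Ass1 (0.75) and Cyp3a11 (0.76), with a list median of 0.48, while 2 had a lower level at an unadjusted p under 0.05. Of 9 tested periportal markers 1, Pck1 (0.84), was higher, with a list median of 0.08 and 3 lower at an unadjusted p under 0.05. Of 11 endothelial markers 1, Lyve1 (0.77), was higher, but 3 of the 11 differences were above 0 and the list median was −0.16. Of 4 tested neutrophil markers 1, Retnlg (0.97), was higher, with a list median of 0.57. The part of these shifts in the differences of Egln3, Ndrg1 and the other members was not tested.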

How the data were processed

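Livers of 18 mice were profiled, 1 library per mouse. The authors aligned paired reads (NEBNext Ultra libraries) to mm10 with STAR, counted them with featureCounts and tested them with DESeq2, and the deposited values are FPKM (RPKM in the methods), in 1 table per experiment. Multiplied by gene length, 100% of them were whole multiples of a step (tolerance 0.05), which gave back the reads, and each table had been scaled on its own by median-of-ratios size factors. Groups follow the labels, and libraries are numbered in accession order. Genes averaging 0.5 FPKM or more were tested two-sided on log2(FPKM + 1) with limma 3.58.1 (trend) in R 4.3.3, after a test on simulated data, and adjusted by Benjamini-Hochberg over all of them. The 10 genes, the pathway and marker lists and the tests were chosen with earlier results of these data known. Listed genes were named where they passed (at most 6 per comparison, by adjusted p), besides Arnt, Egln2, Hif1an and Vhl; Tpi1, Pgk1, Gapdh, Hif3a and the markers were named after their values were seen. Likeness was Pearson r of log2(FPKM + 1) after subtraction of group means. Alternatives were a pseudocount of 0.1, no filter, a minimum of 5 FPKM, upper-quartile rescaling, quantile normalization, limma voom on recovered reads and leaving out each library.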

Additional observations from a re-analysis of the deposited data

Results flagged for a closer look

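In each of the 4 groups, every gene of the 10 was checked for a library far from the others (Dixon's criterion on its gap to the nearest library, as a share of the range), 40 checks in all, of which chance passes about 1 in 20. Epas1 was low in Ctrl+FF 3, at 23.2 FPKM, with a gap of 0.831 of the range of its group. Ndrg1 was high in B2D 4, at 2.19 FPKM, with a gap of 0.758 of the range. Without B2D 4 the Ndrg1 difference was 0.41 on the log2 scale, with a limma adjusted p of 0.0994.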

How the results depend on the processing

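Without fenofibrate 313 genes were called, 67 with no filter on low values, and 98 (without Ctrl 4) to 332 with a library left out. Members called were 2, then 1 with no filter, with a minimum of 5 FPKM (which leaves Ndrg1 untested) or with quantile normalization, and 0 (without Ctrl 4) to 1 with a library left out. Other listed pathway genes called were 2, then 0 with no filter or a minimum of 5 FPKM, 1 after upper-quartile rescaling, and 0 to 3 with a library left out. With fenofibrate 529 genes were called (266 higher and 263 lower, but 223 and 366 after upper-quartile rescaling), 272 with no filter, and 175 (without Ctrl+FF 1) to 596 with a library left out. Other listed pathway genes called ranged from 4 to 14 there with a library left out. For the difference of diet effects 27 genes were called, 16 with a pseudocount of 0.1, 13 with limma voom, and 17 to 66 with a library left out, and listed pathway genes numbered 1 to 2. The alternatives for listed pathway genes were chosen after seeing the data. The causes of these changes were not tested.

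Differences near 0 changed sign. Epas1 without fenofibrate became 0.0187 after upper-quartile rescaling and 0.0723 after quantile normalization. For the difference of diet effects, Hif1a became −0.0806, −0.0694 and −0.00987 (upper quartile, quantile, voom), Vegfa −0.0447 and −0.0566 (upper quartile, quantile) and Ndrg1 0.0366 (quantile). With a library left out, the ranges without fenofibrate were −0.112 to 0.0925 (Epas1), −0.0471 to 0.123 (Egln1) and −0.124 to 0.130 (Pdk1). With fenofibrate they were −0.151 to 0.110 (Epas1), −0.143 to 0.0324 (Egln1), −0.141 to 0.112 (Egln3) and −0.113 to 0.00150 (Vegfa). For the difference they were −0.0558 to 0.0595 (Hif1a), −0.139 to 0.122 (Epas1), −0.174 to 0.00791 (Egln1), −0.0251 to 0.153 (Vegfa), −0.141 to 0.0348 (Ndrg1) and −0.0547 to 0.342 (P4ha1). No paired analysis was possible because the labels give each mouse its own number and no number is shared between groups. Depth limits Ankrd37 (0 to 28 reads) and, less, Ndrg1 (64 to 281 reads).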
